A study of Mus musculus with 2 samples.

Results

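Natural killer (NK) cell receptors and the interleukin 15 axis were described here as 10 genes, of which 8 had a probe set of their own on the array. The genes were Il15, Il15ra, Il2rb and Il2rg of the cytokine axis, and Klrd1, Klra7, Klrg1, Klrb1c, Klrk1 and Ncr1 of the receptors. Their probe sets were those whose gene symbol in the platform annotation equals the gene's name, which gave 11 probe sets out of 20380 with a single symbol, on 12393 genes. Il2rg had no probe set of its own in the tables used here. Another probe set is assigned to both Klrb1b and Klrb1c, so it was counted for neither gene, and it read 31.5 on the control array and 28.1 on the Cbs null array.

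The arrays measured RNA of dissected uterine implantation sites on day 8 of pregnancy, which hold the conceptus and the maternal tissue around it. All females had the genetic background C57Bl/6J X OLA129 and were 4 months old. Control females contributed 1 array, and females homozygous for Cbs deficiency, labelled Cbs null, contributed 1 array. Cbs encodes cystathionine beta-synthase, the enzyme that joins homocysteine and serine, and the comparison asks which transcripts of the implantation site differ when the female lacks it. The labels do not give the genotype of the control alleles, of the conceptus or the deleted part of Cbs, nor whether sites or animals were pooled. A single array per genotype leaves no replicate check, no error between animals and no test of the genotypes, so each ratio compares these 2 arrays.

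Interleukin 15 is the cytokine that NK cells need to develop, survive and proliferate. A neighbouring cell makes it and holds it on its surface with the alpha chain Il15ra, and the NK cell receives it with the beta chain Il2rb and the common gamma chain Il2rg. In the uterus, decidual stroma and macrophages are known sources of the cytokine, and the NK cells that gather in the decidua widen the maternal arteries and carry granules of granzymes and perforin. Their surface receptors include members of the killer cell lectin-like family, some inhibitory and some activating, and the activating receptor Ncr1, whose extracellular part has immunoglobulin-like domains.

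The labelled tissue was checked by markers. Of 7 decidual stroma markers with a probe set of their own, 6 passed the filter on signal, a mean of both arrays of at least 70.5. Prl8a2 read 2542.7 in control and 3633.6 in Cbs null, Hoxa10 1159.9 and 1177.1, and Bmp2, a growth factor of decidualization, 597.0 and 258.0, while Prl3c1 was dim at 16.9 and 9.4. Of uterine NK cell markers outside the members, the granzymes Gzma to Gzmg and Prf1, perforin, read above the filter on each array. Cbs itself read 30.3 against 23.8 (control first) in its first probe set and 29.9 against 22.3 in its second, which is too dim to check the genotype.

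On the Cbs null array, Il2rb, Klra7 and Klrg1 read at least 1.5-fold lower than on the control array, and Klrd1 1.42-fold lower. Il15, the cytokine, and Klrk1 and Ncr1, activating receptors, read close to their control values or above them. Of the 11 probe sets, 8 had a log2 ratio of Cbs null over control below 0, 2 had one above 0, and 1 had no ratio because both of its values lay under the floor of 14.3. A ratio at least 1.5-fold lower was found in 3 of the 11, where 3.26% of all 20380 probe sets with a single symbol were so, and none was 2-fold apart, where 0.721% of all were at least 2-fold lower. Among the 8 member probe sets that passed the filter, the same 3 were at least 1.5-fold lower, where 1.65% of the 10406 kept probe sets were so, and 7 lay below 0, where 46.8% did. Each gene taken by its brightest probe set, the 8 genes had a median log2 ratio of -0.39 and the 7 that passed the filter a median of -0.50, beside 0.02 for the 7079 genes that passed it in all. Filtering touched these counts, since both probe sets of Il2rb passed through their control value and read under 70.5 on the Cbs null array.

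**Figure D1:**
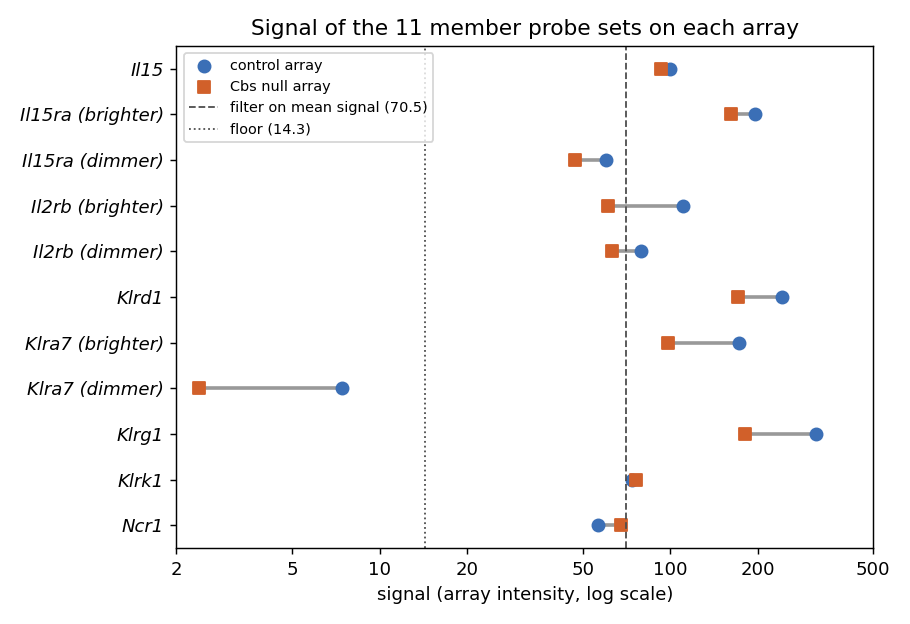
Signal of each of the 11 probe sets on the control array (circles) and the Cbs null array (squares), on a log scale of array intensity, with 1 array per genotype and no error bars. The Cbs null value lies to the left of the control value in 9 of the 11 rows and to the right for Klrk1 and Ncr1, and the dimmer Klra7 probe set lies under the floor of 14.3 on both arrays.

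Within the cytokine axis, the cytokine and the chain that holds it were each less than 1.5-fold apart between the arrays. Il15 read 99.6 on the control array and 93.2 on the Cbs null array, a log2 ratio of -0.10. Of the kept probe sets, 29.6% had a ratio as low or lower. Il15ra, the high-affinity alpha chain, read 196.1 and 161.9 in its brighter probe set, at -0.28, which 10.1% of kept probe sets reached, and 60.4 and 47.2 in its dimmer one, at -0.36. Both Il15ra probe sets were thus lower on the Cbs null array by a similar amount, 0.08 apart on the log2 scale, although the platform annotation lists a different transcript record for each. Bulk tissue holds both the cells that present the cytokine and those that receive it, so a ratio here does not say in which cells a transcript differed, and fewer cells of a type and less RNA per cell cannot be told apart.

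Il2rb, the chain that passes the interleukin 2 and interleukin 15 signal into the NK cell, had the lowest ratio of the 8 genes by its brighter probe set, except with a pseudocount in place of the floor, where Il2rb had -0.73, Klrg1 -0.77 and Klra7 -0.74. Its brighter probe set read 110.5 on the control array and 61.1 on the Cbs null array, 1.81-fold lower, with a log2 ratio of -0.85. Its dimmer probe set read 79.2 and 63.3, 1.25-fold lower, at -0.32, a ratio that 7.58% of kept probe sets reached. The direction was the same in both probe sets and the size was not, with 0.53 on the log2 scale between them. The Cbs null values of the pair, 61.1 and 63.3, were close together, and the control values, 110.5 and 79.2, were further apart.

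That gap was larger than the median disagreement of probe sets at this signal and inside the limit that held 95% of them. The only repeated measurement on these arrays is a second probe set of the same gene. Among the 1453 genes with 2 probe sets of mean signal 50 to 300, the difference between their log2 ratios had an SD of 0.37. The median size of the differences was 0.22, and 95% of them were under 0.74 in size. The signs were the same in 59.5% of the pairs. Of the 25 genes whose brighter probe set was at least 1.5-fold lower in Cbs null sites, the dimmer probe set lay below 0 in 15, Il2rb among them, and was itself at least 1.5-fold lower in 1. Klrg1, Klrd1, Klrk1, Ncr1 and Il15 had a single probe set, and their ratios have no such repeat.

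**Figure D2:**
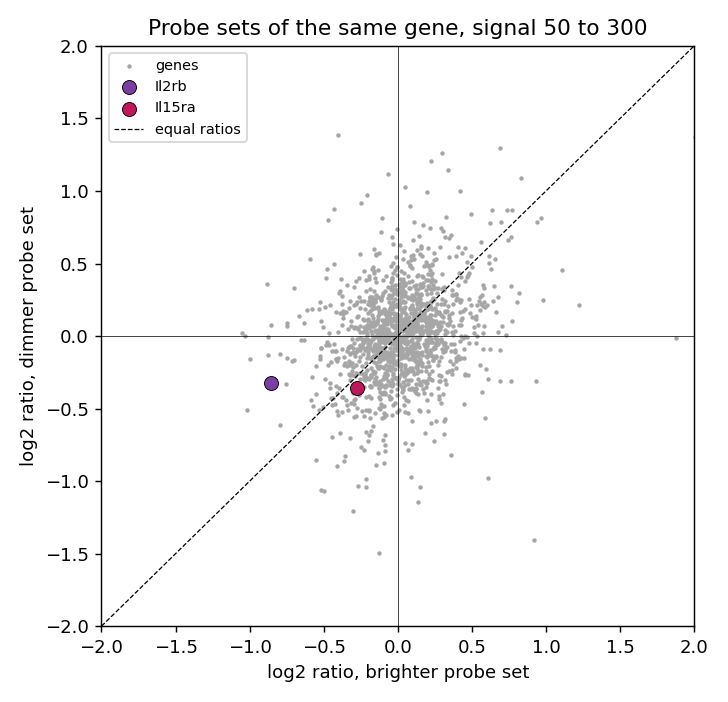
Log2 ratio of Cbs null over control in the brighter (x axis) and the dimmer (y axis) probe set of each of 1453 genes with both at a mean signal of 50 to 300, where each point is a gene, the dashed line marks equal ratios and 3 genes lie outside the axes. Il15ra lies close to the line at -0.28 and -0.36, and Il2rb lies above it at -0.85 and -0.32.

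Klrg1, Klra7 and Klrd1 had the lowest ratios of the 5 measured receptors. Klrg1, an inhibitory receptor that binds cadherins, read 318.6 on the control array and 181.6 on the Cbs null array, 1.75-fold lower at a log2 ratio of -0.81, which 0.682% of kept probe sets reached. Klra7, the inhibitory receptor Ly49G for MHC class I molecules, read 173.1 and 98.2 in its brighter probe set, 1.76-fold lower at -0.82, which 0.673% of kept probe sets reached. That probe set may match several transcripts, and the Klra genes are a family of close copies, so which of them gave the signal is uncertain. The dimmer Klra7 probe set, of the same kind, read 7.4 and 2.4, under the floor on both arrays. Klrd1, the CD94 chain that pairs with inhibitory and activating NKG2 proteins, read 242.2 and 171.1, 1.42-fold lower at -0.50, which 2.78% of kept probe sets reached. Its log2 ratio lay just outside the middle 95% of probe sets of its signal, which began at -0.49.

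Klrk1 and Ncr1, the 2 activating receptors among the measured members, did not read lower. Klrk1, which encodes NKG2D and recognises stress-induced relatives of MHC class I, read 73.9 on the control array and 76.5 on the Cbs null array, a log2 ratio of 0.05. Ncr1, which encodes NKp46 and is close to specific for NK cells and related innate lymphoid cells, read 56.4 and 67.5, at 0.26, and its mean signal was under the filter. Probe sets of mean signal 50 to 70.5 had ratios between -0.67 and 0.97 in their middle 95%, so Ncr1 lay well inside. Both genes lay near the filter, and the signal over background limits what their values show. Outside the members, the activating receptor Klra8 did read lower, at 95.2 and 71.8 and -0.41. That ratio lay inside the middle 95% of its signal, which began at -0.62. These 2 activating and 3 other members are 5 genes on 1 pair of arrays, and the difference between the kinds of receptor was not tested.

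**Figure D3:**
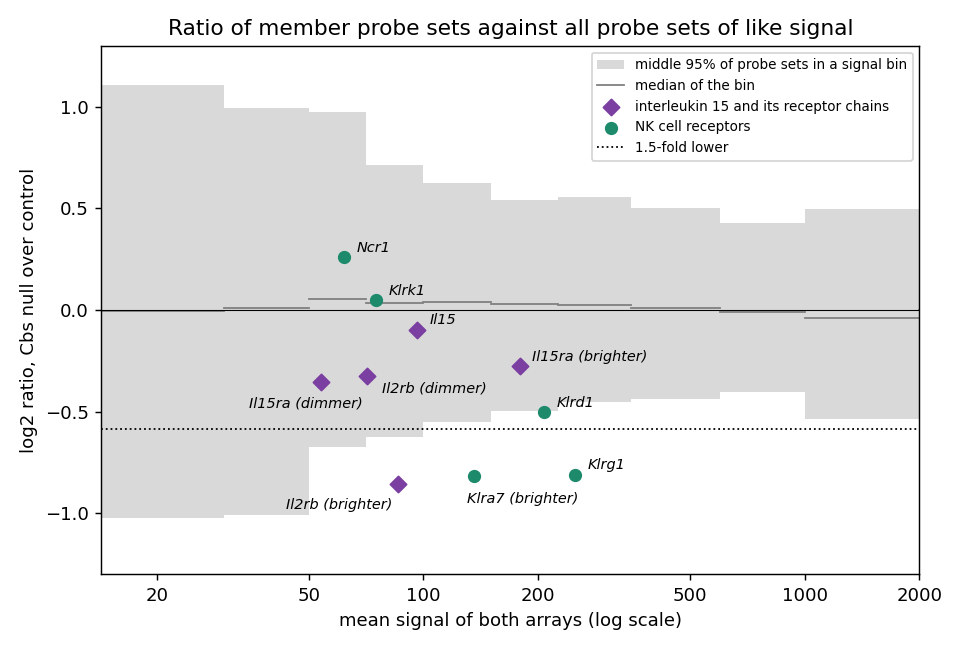
Log2 ratio of Cbs null over control against the mean signal of both arrays (log scale) for the 10 probe sets with a ratio, over the middle 95% (grey) and the median (grey line) of all probe sets with a single symbol in each signal bin. The brighter probe sets of Il2rb and Klra7, with Klrg1, lie under the grey band and under the dotted line of 1.5-fold lower, Klrd1 lies at its edge, and the others lie inside.

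Promoter sequence was at hand for Klra7, Klrk1 and Ncr1 among the measured receptors. RefSeq windows of assembly GRCm38.p6, 250 bases before to 50 after a transcript start, matched 6 of the 10 genes with 9 windows. Of these 3 are shown, for Klra7, Klrk1 and Ncr1. The capitals mark matches, on either strand, to the core of RUNX factors, TGTGGT, and to the STAT motif TTCNNNGAA, which the factors below the interleukin 15 receptor bind.
Klra7, chr6:130231638-130231937, minus strand: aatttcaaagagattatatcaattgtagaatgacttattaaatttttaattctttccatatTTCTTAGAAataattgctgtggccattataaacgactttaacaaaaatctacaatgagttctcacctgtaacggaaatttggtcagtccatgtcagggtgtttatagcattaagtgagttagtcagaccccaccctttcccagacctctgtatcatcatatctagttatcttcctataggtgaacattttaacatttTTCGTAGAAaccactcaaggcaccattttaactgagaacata
Klrk1, chr6:129623815-129624114, minus strand: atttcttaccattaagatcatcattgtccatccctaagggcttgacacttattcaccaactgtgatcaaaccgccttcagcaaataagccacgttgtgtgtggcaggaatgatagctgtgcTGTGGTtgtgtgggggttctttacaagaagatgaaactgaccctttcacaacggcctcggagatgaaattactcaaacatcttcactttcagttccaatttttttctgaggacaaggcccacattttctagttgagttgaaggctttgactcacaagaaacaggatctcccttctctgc
Ncr1, chr7:4337465-4337764, plus strand: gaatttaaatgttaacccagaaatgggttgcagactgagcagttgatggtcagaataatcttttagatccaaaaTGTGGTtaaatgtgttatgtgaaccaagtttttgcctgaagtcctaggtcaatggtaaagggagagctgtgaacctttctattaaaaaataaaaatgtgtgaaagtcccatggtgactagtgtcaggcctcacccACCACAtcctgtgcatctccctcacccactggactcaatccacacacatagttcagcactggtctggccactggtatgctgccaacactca
The Klra7 window, chosen because the other of its 2 windows had no match, holds 2 STAT matches and no RUNX match. Its STAT matches therefore rest on that choice and make no comparison with Klrk1 and Ncr1. Klrk1 holds 1 RUNX match, which begins 129 bases before the start, and Ncr1 holds 2, which begin 176 and 41 bases before it, and neither holds a STAT match. Of all 32851 windows 16.8% hold the RUNX core and 8.3% the STAT motif. The RUNX core was also found in the windows of Klrb1c and Il2rg. Of the other motifs searched, the T-box motif GGTGTGA (3.98% of all windows) and the NFIL3 motif TTATGTAA (0.938%) were found in none of the 9 windows. The ETS core GGAAGT (23.8%) was found in 2, of Klrb1c and Il15ra, and the AP-1 motif TGANTCA (7.81%) in 2, of Klrk1 and Il15ra. The 6 motifs can overlap each other, and a match is a match of letters only. A link between these matches and the ratios was not tested.

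Klrd1, Klra7, Klrk1, Klrb1c and Klrg1 lie on chromosome 6, the first 4 of them in the NK gene complex, whereas Ncr1 is on chromosome 7, Il2rb on 15, Il15ra on 2, Il15 on 8 and Il2rg on X. Between Klrb1c and Klra7 the RefSeq table holds 36 protein-coding genes with both ends counted, of which 19 had a probe set of their own and 7 passed the filter. The 3 of those 7 that belong to no NK receptor family read 78.2 and 105.7 (Clec7a, a receptor for fungal glucans on myeloid cells), 380.2 and 343.3 (Olr1, a receptor for oxidised lipoprotein) and 691.6 and 870.7 (Gabarapl1, an autophagy protein), control first. Their log2 ratios were 0.43, -0.15 and 0.33. Klra8, the activating Ly49H, had -0.41. Its probe set, like the brighter one of Klra7, may match several transcripts, so the Klra7 and Klra8 ratios may not be separate measurements. The 3 lowest ratios of the 7 were thus those of Klra7, Klrd1 and Klra8, while Klrk1 between them stood at 0.05. This stretch was examined after the ratios had been seen.

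At their brightest probe sets, the listed genes that carry the interleukin 15 signal inside the cell did not differ by 1.5-fold. Of 21 listed genes below the receptor, 17 passed the filter, 8 had a ratio below 0 and 9 above, and none of the 17 reached 1.5-fold in either direction, where 1.33% of kept genes were at least 1.5-fold lower and 2.46% higher. Their median log2 ratio was 0.00. Mcl1, the survival protein that interleukin 15 maintains in NK cells, read 1405.9 and 1414.2, at 0.01, and Stat3 read 1079.5 and 997.3, at -0.11. Jak1 and Jak3, the kinases on the beta and gamma chains, had 0.04 and -0.13, and Stat5a and Stat5b, the factors they phosphorylate, 0.28 each. The lowest ratio of the 17 was that of Pim1, a kinase gene that STAT5 induces, at 472.6 and 329.9 and -0.52, under the middle 95% of probe sets of its signal, which began at -0.44. These last 5 genes were named after their values were seen. So were Pik3r1 and Socs3, whose probe sets differed. Pik3r1 had 0.14 at its brightest probe set, and 0.65, more than 1.5-fold higher, and 0.24 at others of mean signal 50 to 300. Socs3 had -0.35 at its brightest, and -0.52 and -0.08 at others of that signal. Most of the listed genes are expressed in many cell types of the uterus. Of 11 other receptors and cytokines of the common gamma chain family, only Il4ra, a chain of the interleukin 4 receptor, passed the filter, at 198.3 and 173.2 and a ratio of -0.20.

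Adaptors and kinases that couple the receptors to the cell interior were mixed in direction. Of 20 listed, 8 passed the filter, 3 below 0 and 5 above, with a median of 0.03 and none 1.5-fold apart. Of all kept genes 1.33% were at least 1.5-fold lower and 2.46% higher. The 8 ran from -0.38 for Zap70, a kinase of NK and T cells, to 0.47 for Ptpn6, the phosphatase SHP-1. Of the 17 listed genes with a value above the floor, 2 dimmer ones were at least 1.5-fold lower, where 3.62% of all such genes were. Sh2d2a, at -0.84, lay under the middle 95% of its signal, which began at -0.67. Lat2, at -0.64, lay inside its own, which began at -1.03. All 4 genes were named after their values were seen. Tyrobp, the adaptor DAP12 that many activating receptors share, read 691.7 and 716.0, at 0.05, and Ptpn11, the phosphatase SHP-2 that inhibitory receptors recruit, 693.0 and 698.2, at 0.01. Tyrobp is also abundant in macrophages. Of 37 other listed receptors of NK cells, 21 had a probe set of their own and 3 passed the filter, the Fc receptor Fcgr3 at -0.21, the integrin chain Itgb2 at 0.21 and Klra8, with 95.2 and 71.8, at -0.41.

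Counted without the filter on signal, these other receptors were mixed in direction. Of the 21 with a probe set of their own, 8 lay under the floor on both arrays. Of the 13 with a value above it, 7 had a ratio below 0 and 6 above, and 4 were at least 1.5-fold lower, where 3.62% of all genes with a value above the floor were so. Those 4 were Klra5, an Ly49 family member, at 49.7 and 16.1 (control first), Cd96, a receptor for nectin-family ligands, at 35.0 and 20.2, Itga2, an integrin chain that marks circulating NK cells, at 26.7 and 16.7, and Cd160 at 31.3 and 20.7. Klrb1b, an inhibitory receptor, was the 1 gene at least 1.5-fold higher, where 5.0% of all such genes were so, at 24.4 and 37.6. The middle 95% of all ratios ran from -1.03 to 1.11 at a mean signal of 14.3 to 30 and from -1.01 to 0.99 at 30 to 50, and of these 5 genes only Klra5, at -1.63, lay outside the range of its signal. These genes were named after their values were seen.

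Most of the listed granule and effector genes of NK cells also read lower. Of 14 kept genes of 21 listed, 13 lay below 0, 9 were at least 1.5-fold lower and none was 1.5-fold higher, with a median log2 ratio of -0.87. Of all kept genes 44.9% lay below 0, 1.33% were at least 1.5-fold lower and 2.46% higher. Counted without the filter, 17 listed genes had a value above the floor, 14 below 0 and 3 above. At least 1.5-fold lower were 10 and higher 1, where 3.62% and 5.0% of all such genes were. The 1 higher was Ccl5, at 21.2 and 33.6, and Xcl1 read 58.4 and 69.9. Ccl5 and Xcl1 were named after their values were seen. Among the kept genes named here, Gzmc, Gzmd, Gzma, Gzme, Gzmg, Gzmf, Prf1 and Gzmb ran from -1.46 to -0.77. The proteoglycan Srgn and the protease Ctsc, found in other leukocytes too, had -0.14 and 0.07. At the brightest probe sets, the ratios of Il2rb, Klra7 and Klrg1, between -0.85 and -0.81, lay between those of Gzmb and Prf1, at -0.77 and -0.96. Other probe sets gave -0.32 for Il2rb, -1.15 for Gzmd and -0.03 for Prf1, the last under the filter at 37.0 and 36.2. The Gzme probe set and this other one of Gzmd may match several transcripts, so the granzyme ratios may not all be separate measurements. The list was drawn up with earlier results on these granzymes known, so its direction is no independent support.

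Transcription factors of NK cells, a list that also holds the receptor Kit, had 9 kept genes of 14 listed, 7 of them below 0, where 44.9% of all kept genes were, with a median of -0.22. Kit, a growth factor receptor of immature lymphoid cells and mast cells, was the only one at least 1.5-fold apart, where 1.33% of kept genes were that much lower and 2.46% higher. It read 203.3 and 127.4, 1.60-fold lower. Id2 and Nfil3, which NK cells need to form, had -0.18 and -0.22. Of the T-box factors of NK cells, named after their values were seen, Eomes read 145.7 and 97.8, 1.49-fold lower at -0.58, with its other probe set at -0.48, and Tbx21, the factor T-bet, was too dim to use, at 15.5 and 16.2. The sites hold the conceptus as well as maternal tissue, so the Eomes signal cannot be assigned to NK cells.

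The list of receptor ligands also holds Nectin2 and Pvr, bound by other NK receptors besides the members. None of its kept genes differed by 1.5-fold at the brightest probe set, where 1.33% of all kept genes were that much lower and 2.46% higher. Of 24 listed genes, 12 had a probe set of their own and 7 passed the filter, 5 above 0 and 2 below, where 44.9% of all kept genes lay below 0, with a median of 0.19. B2m, the light chain of MHC class I, read 3829.4 and 4206.2, at 0.14, and H2-K1, a heavy chain, 2205.4 and 2698.9, at 0.29. Other H2-K1 probe sets above the filter had 0.30 and, at 279.5 and 438.3, 0.65, which is more than 1.5-fold higher. Of the 10 listed genes with a value above the floor, 1 was at least 1.5-fold higher, where 5.0% of all such genes were. It was Clec2h, at 13.3 and 29.1, with its control value under the floor. Of the cadherins listed as ligands of Klrg1, Cdh1 read 293.8 and 290.3, at -0.02, and Cdh2 80.5 and 91.6, at 0.19. Cdh4 was under the filter, at 42.6 and 45.4. These cadherins were named after their values were seen.

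**Figure D4:**
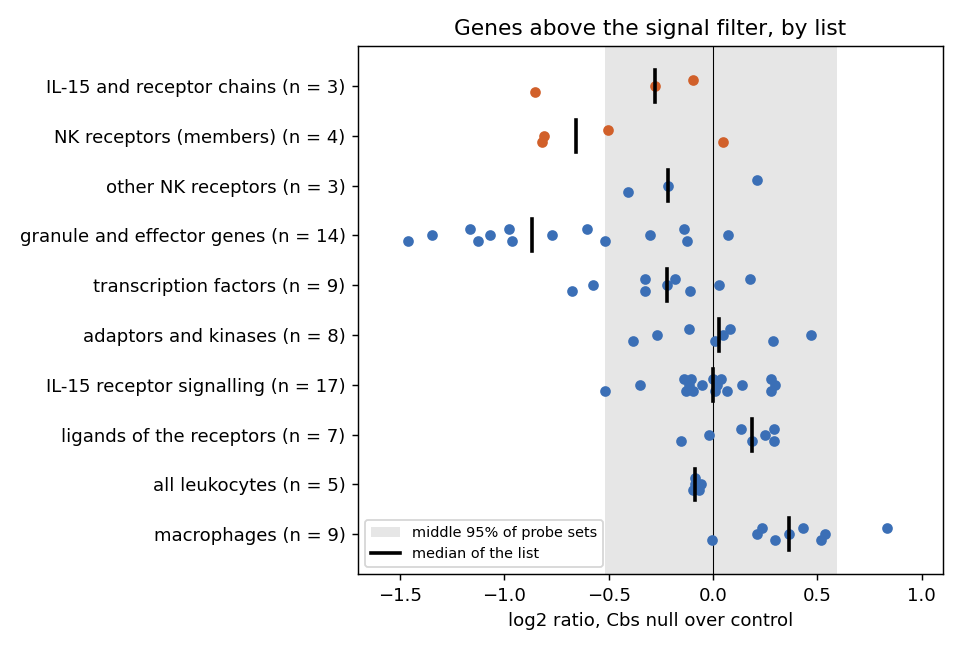
Log2 ratio of Cbs null over control for genes above the signal filter in 10 gene lists, each point a gene at its brightest probe set, the black bar the list's median and the grey band the middle 95% of all kept probe sets, from -0.52 to 0.59. The band describes single probe sets and not medians. The 4 kept member receptors have a median of -0.66, which is -0.50 with Ncr1 counted, the granule genes -0.87, and the signalling, adaptor and leukocyte lists 0.00, 0.03 and -0.08.

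Several of these receptors also occur on T cells, and other cell types moved on the same arrays. None of the 9 T cell markers with a probe set passed the filter, the highest of their values was 35.6, and their summed signal was 86.9 on the control array and 83.0 on the Cbs null array. Among them Cd3e read 5.7 and 5.6, under the floor, as did Cd3d, Cd4 and Cd8a. All 5 genes carried by leukocytes in general passed the filter and lay between -0.10 and -0.06, with a summed signal of 2025.3 and 1919.4. Of all 7079 kept genes, 3894 lay above 0. Macrophage markers lay above 0 in 8 of 9, with a median of 0.36 and a summed signal of 4381.6 and 5711.5. Markers of uterine epithelium lay above 0 in 7 of 8, with a median of 0.50, and their sum of 5660.9 and 17730.5 rested on the gland proteinases Prss28, at 918.9 and 6692.4, and Prss29, at 2220.1 and 7620.0. The 2 kept dendritic cell markers, H2-Aa and H2-Ab1, lay above 0, with a median of 0.75. With the filter at percentile 25 that median was 0.36 over 5 genes. Of the 6 dendritic cell markers with a value above the floor, 4 lay above 0 and 2 below. The 2 below were Zbtb46, at 57.5 and 46.7, and Cd209a, at 29.1 and 12.1. Among endothelium markers 4 of 6 lay below 0, with a median of -0.12. Of neutrophil markers, S100a8 had -0.35, while S100a9, under the filter, read 15.7 and 113.0. Ighm, the 1 kept B cell marker, had 0.94 in its brighter probe set and -0.31 in its dimmer one. The part of these shifts in the ratios of the receptors was not tested.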

How the data were processed

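RNA of implantation sites was labelled and hybridised to 2 Affymetrix mouse arrays, 1 control and 1 Cbs null. The values deposited by the authors are a linear intensity for each probe set on each array. GCOS 1.4 produced them, per the submitters' processing notes, and its algorithm, the build behind the probe sets and any detection call are not stated there. Both arrays had the same 2% trimmed mean, 200.08, and no scaling was added.

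Of 22690 probe sets, 64 controls were set aside. The platform annotation gave a single gene symbol to 20380, and 20351 of these were found by identifier in the RefSeq gene table. A floor of 14.3 (percentile 25 over both arrays) was applied, and the log2 ratio is that of Cbs null to control. Lists used genes by their brightest probe set, where its mean signal reached the median of all, 70.5. Member probe sets are given without this filter.

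The member genes, lists and limits were chosen with earlier results of these data known. Named from each other list were up to 8 kept genes at least 1.5-fold apart, by size, and the 2 brightest of the rest. Other genes were named after their values were seen. Ratios were computed in Python 3.11, and the functions were tested on simulated data. The number of arrays limits the precision.

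As alternatives, the arrays were quantile normalized, centred on the median ratio or freed of a loess trend (span 0.3). The floor was set at percentile 10 or 40 or replaced by a pseudocount, and the filter at percentile 25, 50 or 75 of mean signal. Probe sets of a gene were also taken by their median, and those with a suffix were left out.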

Additional observations from a re-analysis of the deposited data

How the results depend on the processing

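Both other floors and centring left the ratios of the 10 member probe sets as they were, since all their values exceed those floors and the median ratio of all probe sets is 0, so they test nothing. Under quantile normalization, loess removal and the pseudocount the 10 ratios had the same sign and moved by less than the SD of 0.37 between probe sets of a gene. Il2rb ran from -0.91 to -0.73 in its brighter probe set and from -0.38 to -0.27 in its dimmer one, Klra7 from -0.85 to -0.74, Klrg1 from -0.84 to -0.77 and Klrd1 from -0.53 to -0.47. Klrk1 ran from 0.00 to 0.05 and Ncr1 from 0.20 to 0.26. The count of 3 probe sets at least 1.5-fold lower became 4 once the floor sat at percentile 10, which adds the dimmer Klra7 probe set, 2 of 7 when probe sets with a suffix, Klra7 among them, were left out, and 1 under the filter at percentile 75, which leaves only Klrg1. The median of the members under that filter was -0.81, and it ran from -0.81 to -0.36 over all alternatives. None of the scalings moved the median of all kept genes by more than 0.02. No paired analysis was possible because each genotype has 1 array. Signal over background limits Il2rb, Klrk1 and Ncr1, which lie near the filter, and the dimmer Klra7 probe set, which has no ratio.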
